A study of Homo sapiens with 8 samples.

Results

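MIR122, MIR192, MIR194-1 and MIR215 are microRNA genes best known from liver and gut, and were taken here by their symbols, as signs of RNA from serum or other tissue in libraries of a B-cell line. All 4 have a row in the deposited tables of 2709 non-coding RNA features, of which 1335 carry a miRNA symbol. Small RNA was sequenced from exosomes, small membrane vesicles released into the culture medium (n = 5 libraries), and from the MEC-1 cells that released them (n = 3). MEC-1 is an established cell line derived from chronic lymphocytic leukaemia, a cancer of B cells, and the series concerns what such exosomes do to monocytes. Neither group received a treatment, and the cells were grown in bioreactors. Per the labels' protocols the medium held 10% fetal calf serum. Serum vesicles had been removed by ultracentrifugation at 100000 g for 2 h from all medium other than that of the upper compartment. The exosome pellet was passed over a 20% cushion of density medium. Cells were harvested alongside 3 of the 5 exosome samples, per the design text, which does not say which. The labels do not say whether libraries of a group are separate cultures. The p-values below therefore describe the spread among these libraries, which may be technical. The genes and the miRNA lists below were also chosen with earlier results of these data known, so their calls are descriptive.

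A miRNA gene is transcribed as a hairpin, from which a mature strand of about the length of the sequences below is cut and loaded into an Argonaute protein. The seed, bases 2 to 8 of the mature strand, pairs with target messenger RNAs. MIR122 makes the dominant miRNA of hepatocytes, which also circulates in blood plasma. miR-192, miR-194 and miR-215 are expressed in gut epithelium, liver and kidney, and miR-192 and miR-215 are induced by p53. The 5p strands are shown first because 2 of these genes share a seed and another has an identical copy elsewhere in the genome. Seeds are in capitals and the letters are those of RefSeq on GRCh38.p14, where all 4 symbols were matched.

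miR-122-5p: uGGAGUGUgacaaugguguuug
miR-192-5p: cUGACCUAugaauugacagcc
miR-215-5p: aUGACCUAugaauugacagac
miR-194-5p: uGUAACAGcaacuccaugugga

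Seed sharing split the 4 genes into 3 groups. miR-192-5p and miR-215-5p had the same seed, and no other mature miRNA in the RefSeq table carried it. Counted from 1 at the 5′ end of miR-192-5p, the strands of 21 bases differed by C1A and C20A only, so 19 bases were identical. Whether reads lacking those end bases were assigned to 1 of these genes or both is not given in the sources used here. The seeds of miR-122-5p and miR-194-5p each belonged to a single mature miRNA name.

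The 4 hairpins lie at 3 places in the genome (GRCh37, as the files give it). MIR122 is at chr18:56118306-56118390 on the plus strand, and release 29 of GENCODE places it in an exon of the long non-coding gene MIR122HG. That annotation, which is on the newer build and was used for names alone, also lists MIR3591 on the opposite strand of the same hairpin. MIR3591 had no row in the tables, and the sources used here do not state whether counting used strand, so reads of the 2 strands cannot be told apart. MIR192 is at chr11:64658609-64658718 on the minus strand, in an exon of MIR194-2HG. MIR215 at chr1:220291195-220291304 and MIR194-1 at chr1:220291499-220291583 share the minus strand with 194 bases between them, in an intron of IARS2, which runs the other way.

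MIR194-1 needs its copy beside it. MIR194-2 lies with MIR192 in MIR194-2HG and had no row of its own, so it was not analysed here. The hairpins are printed with the mature strands in capitals, to show that the 5p strand is the same in both and the surrounding hairpin is not.

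MIR194-1: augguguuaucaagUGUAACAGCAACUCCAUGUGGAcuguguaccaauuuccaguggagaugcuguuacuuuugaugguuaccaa
MIR194-2: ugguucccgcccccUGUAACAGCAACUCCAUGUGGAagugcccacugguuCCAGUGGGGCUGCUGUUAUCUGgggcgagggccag

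A read of miR-194-5p therefore matches both places, and the MIR194-1 values below may hold RNA of either gene. No source used here states how reads with several matches were counted, and the tables did not show a single pattern. Of 29 pairs of miRNA genes that share a mature sequence, both have a row and hold at least 800 counts together over the 8 libraries, 5 differed in no library by more than 2% or 5 reads. MIR9-1 and MIR9-3, which share all mature sequences, held 6570 and 6567 counts. MIR941-1 and MIR941-2, which also share all, held 35 and 4076. MIR16-1 and MIR16-2, which share only some, held 8015 and 52828.

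Library totals ran from 23353820 to 32436286 counts in exosomes and from 25675636 to 57323598 in cells, and miRNA features took 3.10% to 11.5% and 6.22% to 12.2% of them. Exosome 5 and cell 2 stood apart in their TMM scaling factors, which correct for a few features taking much of a library (0.524 and 0.552, against 0.905 to 1.46 in the other libraries). Results were therefore also computed without both. Levels are in CPM, counts scaled to 1000000 counts of library size times that factor. Listed leucocyte miRNAs (6 of 8 symbols have a row) summed to 6760 to 18780 CPM in exosomes and 13300 to 27921 CPM in cells. Most of this was the single feature MIR21, whose group means were 11172 (exosome) and 20178 CPM (cell). The B-cell miRNAs on the list that have a row were far lower. Exosome means of MIR181A1, MIR181A2 and MIR150 were 357, 385 and 24.9 CPM, and their cell means 287, 357 and 8.33 CPM. The listed MIR142 and MIR155 had no row. MIR155HG, the host gene of MIR155, was outside the sum, with group means of 8675 (exosome) and 10076 CPM (cell), and was not called. Whether its counts include reads of MIR155 was not tested. The sum therefore does not measure B-cell content. Of the 6 features edgeR called none (0 at an unadjusted p under 0.05, and 0 by DESeq2 or limma-voom). In these bulk libraries, more vesicles that hold an RNA and more of it in each vesicle cannot be told apart, and every level is relative to the other RNA of the same library.

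Of the 4 genes, MIR122 and MIR215 were higher in exosomes and MIR192 and MIR194-1 did not pass the test. MIR122 differed by 44.2-fold, MIR215 by 3.76-fold. Every exosome library lay above every cell library for the same 2 genes. The test was edgeR's quasi-likelihood test over 1178 features with Benjamini-Hochberg adjustment, with an adjusted p under 0.05 as the threshold. It called 20.5% of all features higher and 22.3% lower. Among 333 miRNA features it called 40 higher (12.0%) and 26 lower (7.81%), and 37 higher and 13 lower where miRNAs were compared alone with their own scaling. Of all features, 21.6% had every exosome library above every cell library, and 13.2% of the miRNA features did. The median log2 fold change was 1.31 over the 4 genes, 0.01 over the miRNA features and -0.09 over all features, so the fold changes below can be read against a centre near 0. With scaling by total counts that centre was 0.19, with upper-quartile scaling 0.25, and without the large rRNA features 0.29.

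**Figure D1:**
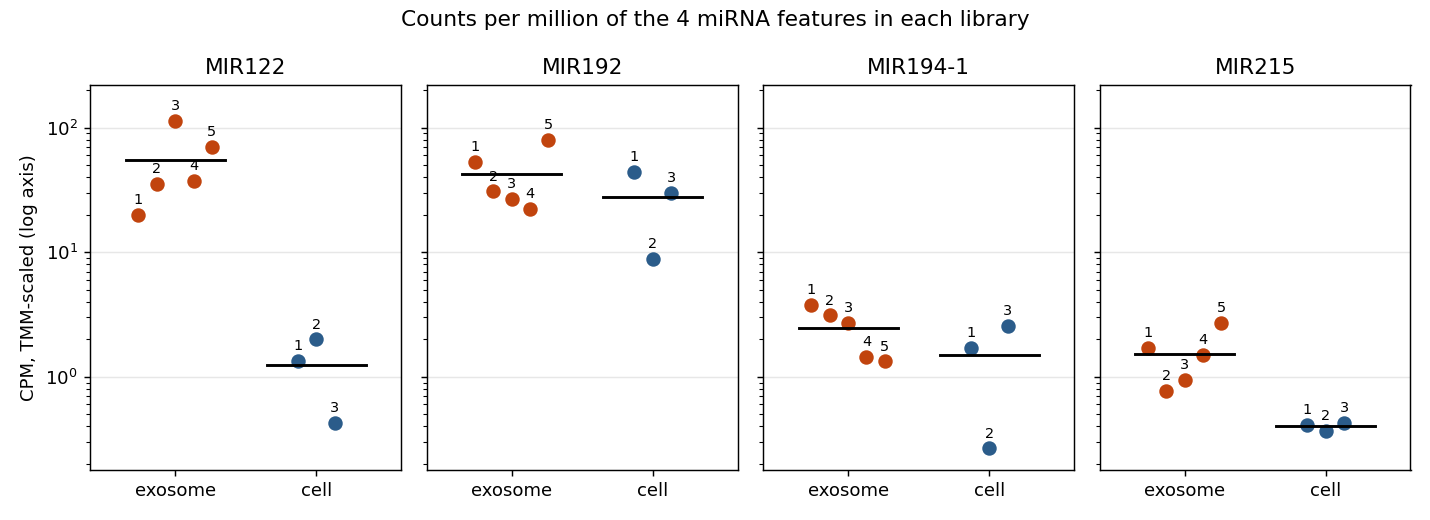
Each point is 1 library, numbered by its replicate, with CPM on a log axis for the exosome (n = 5) and cell (n = 3) groups, and the black line is the group mean. MIR122 sits between 19.9 and 114 CPM in exosomes and between 0.424 and 2.00 CPM in cells, while the groups overlap for MIR192 and MIR194-1.

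MIR122, the liver miRNA, was the member with the widest separation. Its counts in exosomes 1 to 5 were 647, 1237, 5193, 1278 and 1002, which are 19.9, 35.3, 114, 37.5 and 70.1 CPM. In cells 1 to 3 they were 49, 60 and 22, or 1.34, 2.00 and 0.424 CPM. Exosome 3 was the highest and exosome 1 the lowest of its group, and even the lowest was above the highest cell library. The mean was 55.3 ± 37.5 CPM (SD, n = 5) in exosomes and 1.25 ± 0.790 CPM (SD, n = 3) in cells. The log2 fold change was 5.47 (SE 0.85, 95% interval 3.67 to 7.27, adjusted p = 0.000194, edgeR). The call held in all 18 alternatives tried, with log2 values from 5.22 to 5.94.

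MIR122 reads were present in all 3 cell libraries as well. The exact Poisson 95% interval of the smallest count, 22 in cell 3, was 13.8 to 33.3 counts, which covers counting error only, since the libraries carry no molecular identifiers. Within the miRNA reads alone, MIR122 took 238 to 2769 per 1000000 miRNA counts in exosomes and 5.75 to 17.7 in cells. It ranked between place 39 and place 82 among miRNA features in exosome libraries, and between 165 and 245 in cell libraries. By mean CPM it was at place 58 of 333 in exosomes and 194 in cells. Its fold change was the 15th largest of the 333 miRNA features and the 33rd of all 1178. All 14 miRNA features with larger fold changes had a lower mean CPM over the 8 libraries, as the plot of fold change against level shows.

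**Figure D2:**
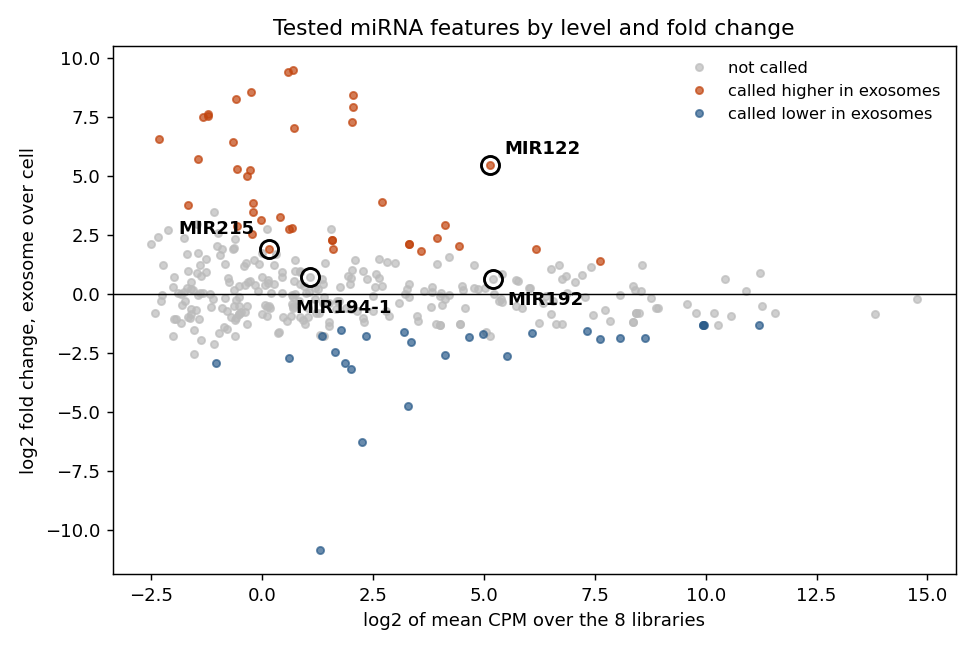
Each point is 1 of the 333 tested miRNA features, with the log2 of its mean CPM over the 8 libraries on the x axis and its log2 fold change, exosome over cell, on the y axis, coloured by the call. The 4 genes are ringed: MIR122 at 5.47 and MIR192 at 0.61 lie at similar levels, and MIR215 (1.91) and MIR194-1 (0.71) at lower ones.

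MIR192, made with MIR194-2 from 1 host gene, did not pass the test. Its counts were 1716, 1079, 1215, 757 and 1132 in exosomes 1 to 5, or 52.7, 30.8, 26.6, 22.2 and 79.1 CPM. The cell counts were 1601, 266 and 1557, or 43.9, 8.85 and 30.0 CPM. The groups overlapped, since cell 1 was above 3 exosome libraries and cell 2 below all of them. The means were 42.3 ± 23.7 CPM (SD, n = 5) and 27.6 ± 17.7 CPM (SD, n = 3), with a log2 fold change of 0.61 (SE 0.63, 95% interval -0.71 to 1.94, adjusted p = 0.46, edgeR). That interval includes both a rise and a fall, and lies wholly below the interval of MIR122. Cell 2 set much of the value: without it the log2 fold change was 0.01, and without cell 2 and exosome 5 together it was -0.25, with an adjusted p of 0.75 by edgeR.

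MIR194-1, whose mature strand could also come from MIR194-2, did not pass either. The exosome counts were 124, 109, 123, 49 and 19 (3.81, 3.11, 2.70, 1.44 and 1.33 CPM), and the cell counts 62, 8 and 133 (1.70, 0.266 and 2.56 CPM). Exosomes 4 and 5 lay below cells 1 and 3, and cell 2 was again the lowest library. The 8 counts of cell 2 have an exact Poisson interval of 3.45 to 15.8. Means were 2.48 ± 1.07 CPM (SD, n = 5) and 1.51 ± 1.16 CPM (SD, n = 3), with a log2 fold change of 0.71 (SE 0.73, 95% interval -0.83 to 2.25, adjusted p = 0.463, edgeR). It was 0.15 without cell 2 and 1.58 without cell 3, and did not pass in any alternative.

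MIR215, the seed partner of MIR192 and the chromosome 1 neighbour of MIR194-1, was called higher from few reads. Its counts were 56, 27, 43, 51 and 39 in exosomes, or 1.72, 0.770, 0.942, 1.50 and 2.73 CPM, and 15, 11 and 22 in cells, or 0.412, 0.366 and 0.424 CPM. No cell library reached the lowest exosome library, exosome 2. The means were 1.53 ± 0.773 CPM (SD, n = 5) and 0.401 ± 0.0306 CPM (SD, n = 3), with a log2 fold change of 1.91 (SE 0.75, 95% interval 0.33 to 3.49, adjusted p = 0.0486, edgeR).

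The MIR215 call rested on a narrow margin. It was lost in 12 of 18 alternatives, among them leaving out exosome 1 (log2 1.84, adjusted p = 0.0842, edgeR), exosome 5 (1.63, adjusted p = 0.0713), cell 1 (1.82, adjusted p = 0.14), cell 2 (1.71, adjusted p = 0.114) or cell 3 (2.28, adjusted p = 0.0684). The direction was the same in all 18, with log2 values from 1.48 to 2.39. Per 1000000 miRNA counts, MIR215 ran from 19.0 to 28.6 in exosomes and from 3.25 to 5.75 in cells.

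**Figure D3:**
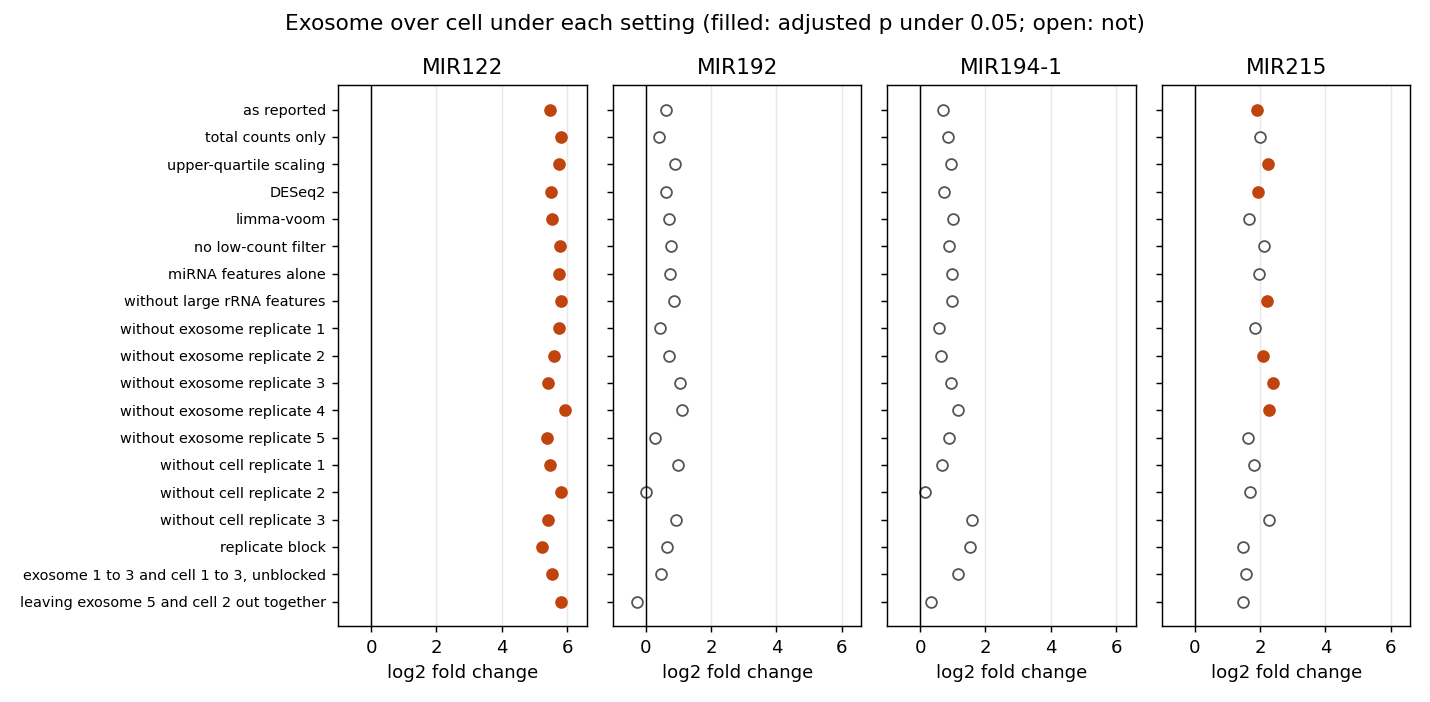
The x axis of each panel is the log2 fold change, exosome over cell, and each row is a processing setting, with filled points at an adjusted p under 0.05 and open points otherwise. MIR122 is filled in every row between 5.22 and 5.94, MIR215 in 7 of 19 rows, and MIR192 and MIR194-1 in none.

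The order of the 4 genes differed between exosomes and cells when levels were divided by feature length (85 nt for MIR122 and MIR194-1, 110 nt for MIR192 and MIR215). In exosomes MIR122 was at 65.1 ± 44.1 CPM per 100 nt (SD, n = 5), MIR192 at 38.4 ± 21.5, MIR194-1 at 2.91 ± 1.26 and MIR215 at 1.39 ± 0.703. MIR122 was above MIR192 in 4 of 5 exosome libraries on this scale, and their ranges overlapped. In CPM not divided by length it was above in 3 of 5. The mature strands of both genes have 21 or 22 bases, so division by hairpin length may not suit such reads. MIR194-1 was above MIR215 in 4 of 5, with overlapping ranges as well. The gap between MIR192 and MIR194-1 was wider than the spread, since the lowest MIR192 value was 20.2 and the highest MIR194-1 value 4.48.

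In cells MIR192 led with 25.1 ± 16.1 CPM per 100 nt (SD, n = 3), and no library of another of the 4 genes reached its lowest value of 8.04. MIR194-1 (1.78 ± 1.37), MIR122 (1.48 ± 0.929) and MIR215 (0.364 ± 0.0278) followed. The range of MIR194-1 overlapped those of MIR122 and MIR215, while the lowest MIR122 value (0.499) was above the highest MIR215 value (0.385). MIR122 was thus the highest of the 4 in mean level in exosomes but not in cells.

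Ratios between genes within a library do not depend on its depth or scaling, and 3 were compared (log2 of counts plus 0.5). The MIR122 to MIR192 ratio was 0.377, 1.15, 4.27, 1.69 and 0.885 in exosomes 1 to 5 and 0.0309, 0.227 and 0.0144 in cells 1 to 3. All exosome libraries were above all cell libraries, and cell 2, with its low MIR192, came closest. The mean log2 ratio was 0.29 ± 1.28 (SD, n = 5) against -4.42 ± 2.05 (SD, n = 3), a difference of 4.72 (SE 1.32). The exact permutation test, two-sided, gave p = 0.0357, the smallest that 56 splits allow, and an adjusted p of 0.107 over the 3 ratios. The difference did not pass after adjustment, but it could have passed only if all 3 ratios had reached that smallest p. The adjusted value therefore cannot decide whether this ratio differed.

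The other 2 ratios overlapped between the groups. MIR215 to MIR192, which share a seed, stood at 0.0329, 0.0255, 0.0358, 0.0680 and 0.0349 in exosomes and at 0.00968, 0.0432 and 0.0144 in cells. The difference in mean log2 ratio was 1.03 (SE 0.69, exact permutation p = 0.179, adjusted p = 0.268). MIR215 to MIR194-1, the pair on chromosome 1, ran from 0.251 to 2.03 in exosomes and from 0.169 to 1.35 in cells. Its difference was 0.67 (SE 1.07, exact permutation p = 0.464, adjusted p = 0.464). In cell 2 both ratios were the highest of the cell group.

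**Figure D4:**
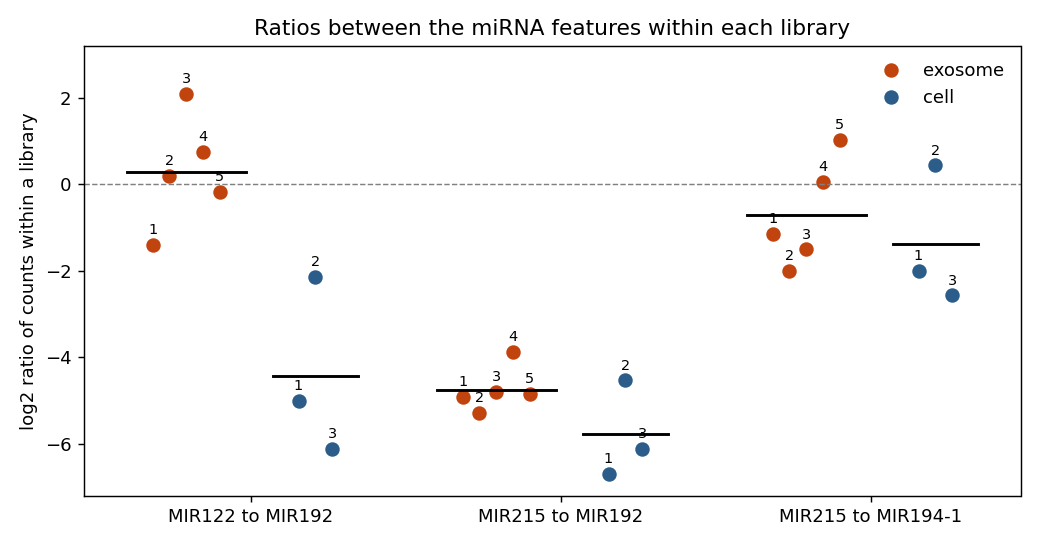
The y axis is the log2 ratio of the counts of 2 genes within a library, each point is 1 library numbered by its replicate, and the black lines are group means. For MIR122 to MIR192 the exosome libraries lie between -1.41 and 2.10 and the cell libraries between -6.11 and -2.14, and the other pairs overlap.

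Other listed miRNAs of liver, pancreas and gut held few counts, and most could not be tested. Of 9 listed symbols, 8 had a row and 2 had enough counts to be tested, the islet miRNA MIR375 and MIR147B, and edgeR called neither (0 at an unadjusted p under 0.05, and 0 by DESeq2 or limma-voom). MIR375 summed to 42 counts over the exosome and 53 over the cell libraries, and MIR147B to 92 and 106. MIR802, a liver and pancreas miRNA, had 8 counts in exosome 1 and none elsewhere, so it was not tested. MIR217 had 3 counts in exosome 1 alone, and MIR216B 3 in exosome 1 and 2 in cell 3. MIR885, MIR483 and MIR216A were at 0 in all 8 libraries. The summed level of the list was 0.342 to 1.78 CPM in exosomes and 0.790 to 2.59 CPM in cells. In exosome 3, where MIR122 was highest, it was 0.416 CPM.

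miRNAs of further tissues gave a mixed picture beside MIR122. The stromal and smooth muscle list (5 of 6 symbols with a row, 4 tested) had 2 members called higher and none lower. Of all features 20.5% were called higher, and of miRNA features 12.0%. All 4 were at an unadjusted p under 0.05 in edgeR, and DESeq2 called 4 and limma-voom 2. MIR199A1 and MIR199A2 of this list share all mature sequences and held 188 and 191 counts, so they are not separate signals. MIR199B, 1 of the 2 called members beside MIR143, shares some of these sequences and held 259 counts, so it is not fully separate either. The summed level of the list was 4.94 to 31.9 CPM in exosomes and at most 1.76 CPM in cells, with the maximum in exosome 3. The myeloid and platelet pair had 1 of 2 higher, and summed to 10.8 to 58.8 CPM in exosomes, again highest in exosome 3, and to 1.26 to 10.7 CPM in cells. The called member was MIR126, with means of 26.0 (exosome) and 3.46 CPM (cell), which made up most of the sum in exosomes. MIR223 was not called, so the sum does not measure myeloid content. The single red cell feature with a row, MIR486, was not called by edgeR, DESeq2 or limma-voom. It overlapped between groups (22.4 to 88.3 against 9.47 to 51.7 CPM).

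The summed levels of the epithelial and neural lists were not higher in exosomes as a group. The epithelial list had 1 of 6 tested members higher, with a summed level of 17.5 to 26.2 CPM in exosomes, with the maximum also in exosome 3, and 22.4 to 53.0 CPM in cells. The neural list had 0 of 2 called (7.27 to 53.4 against 46.8 to 91.4 CPM), with MIR124-2 and MIR124-3 at 0 in all 8 libraries. The 2 tested, MIR9-1 and MIR9-3, share all mature sequences and held 6570 and 6567 counts. They are therefore not separate signals, and their sum may count the same reads more than once. The muscle list had 0 of 1 tested (0.656 to 4.19 against 0.823 to 1.41 CPM), and MIR133B, MIR206, MIR208A and MIR208B were at 0 in cells. Neither the neural nor the muscle list had a member at an unadjusted p under 0.05 in edgeR or a call by DESeq2 or limma-voom. Which source the reads of MIR122 or of these lists came from was not tested, and no calf sequence was used here.

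**Figure D5:**
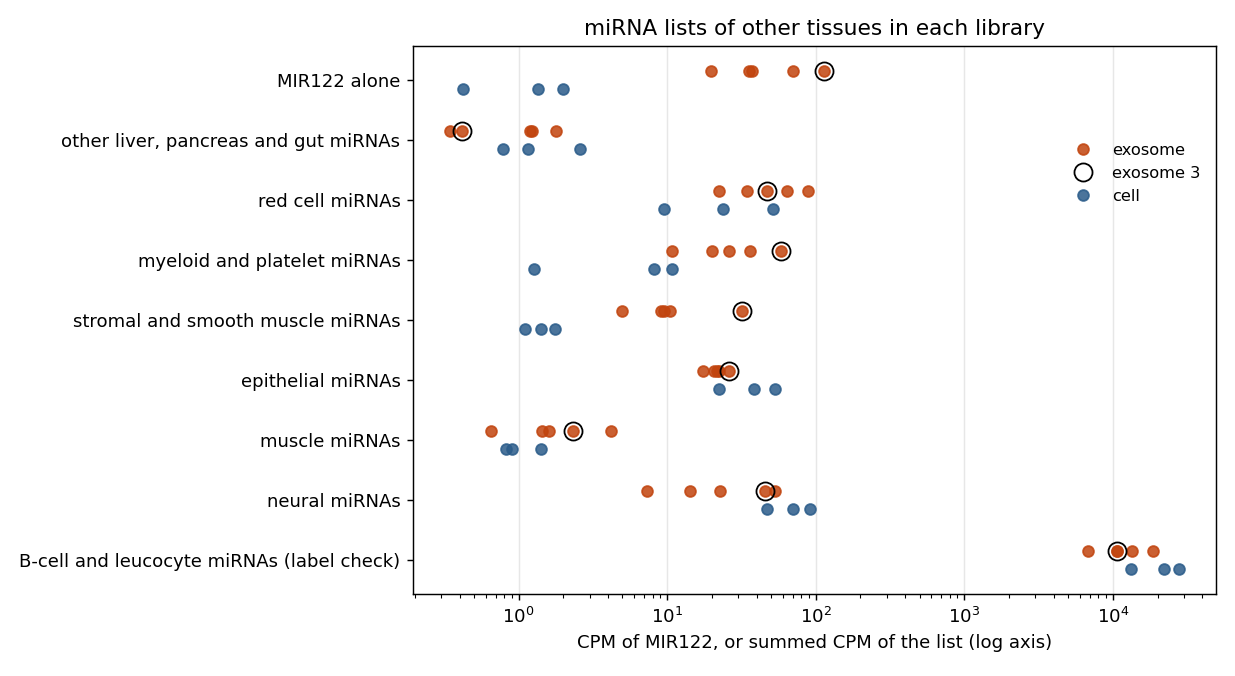
The x axis is the CPM of MIR122 or the summed CPM of each miRNA list on a log axis, and each point is 1 library, with exosome 3 ringed. Exosome 3 holds the highest exosome value for MIR122 (114 CPM) and for the stromal list (31.9 CPM). It also does for the myeloid and platelet pair (58.8 CPM) and the epithelial list (26.2 CPM). For the other liver, pancreas and gut, red cell, muscle, neural and leucocyte lists another exosome library is highest.

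The miRNA features whose log2 CPM over the 8 libraries was most like that of each gene were named by their correlation, as a description in which the 2 groups and the shared scaling weigh heavily. For MIR122 they were MIR143, a smooth muscle and stromal miRNA (r = 0.964), MIR411 (0.943) and MIR412 (0.909), and all 3 were called higher in exosomes. MIR143 averaged 9.98 ± 9.63 CPM (SD, n = 5) and 0.674 ± 0.255 CPM (SD, n = 3), and MIR411 had no count in any cell library. For MIR215 they were MIR3118-3 (r = 0.982), MIR320C1 (0.981) and MIR3156-1 (0.980), also all called higher. MIR3118-3 averaged 0.0193 CPM in cells, and MIR3156-1 0 CPM. Features picked by correlation over both groups tend to share the gene's call, so the calls of these features add no support. For MIR192 they were MIR345, MIR335 and MIR505 (r = 0.906, 0.892 and 0.890), and for MIR194-1 MIR191, MIR15B and MIR93 (0.914, 0.897 and 0.877), none of which was called. Between the 4 genes themselves, r was 0.79 for MIR122 with MIR215, 0.639 for MIR192 with MIR194-1 and 0.612 for MIR192 with MIR215. It was 0.313 for the chromosome 1 neighbours MIR194-1 and MIR215, and 0.297 and 0.283 for MIR122 with MIR192 and with MIR194-1.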

How the data were processed

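The authors deposited 1 table of raw read counts per library, in the layout of featureCounts per the file headers. The submitters' processing notes give GRCh37 as the build and list, without roles or settings, the tools STAR, cutadapt 1.1, DESeq2 1.8.2 and featureCounts. Per the labels' protocols, libraries were made from 30 ng of RNA below 200 nt with 15 PCR cycles. Counts are per gene, so hairpin arms are not separated. Groups and replicate numbers came from the sample titles.

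All features were fitted together in edgeR 4.0.16 (R 4.3.3) with TMM factors, the default low-count filter (minimum 10), robust quasi-likelihood dispersions and Benjamini-Hochberg adjustment, and tested on simulated data first. A standard error is the log2 fold change over the square root of F. Alternatives used DESeq2 1.42.0, limma-voom (limma 3.58.1), other scalings and filters, and each library left out. Ratios were tested by exact permutation of libraries (scipy 1.17.1). Correlations used log2 CPM with a prior count of 2. miRNA features have a symbol starting MIR and a number or LET, without host genes. Named are the 4 genes, the 3 most alike miRNAs of each, and listed miRNAs at 0. Other miRNAs were named after their values were seen. The genes and lists were chosen with earlier results of these data known. No 2 libraries held the same counts. Same-numbered exosome and cell libraries did not deviate together in every pair (correlations 0.102, -0.0425 and 0.0875), so the numbers were not used as pairs. Which 3 exosome samples the design text pairs with cells is not named there, so the comparison treats the libraries as unpaired.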

Additional observations from a re-analysis of the deposited data

How the results depend on the processing

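MIR122 kept its direction and its call in all 18 alternatives, and MIR194-1 its direction without a call. The call of MIR215 was lost at log2 2.01 with total counts only, 1.67 with limma-voom, 2.12 with no low-count filter, 1.98 with miRNA features alone, 1.56 with exosomes 1 to 3 and cells 1 to 3 unblocked, and 1.49 leaving exosome 5 and cell 2 out together. With the replicate block on the same 6 libraries it was lost at 1.48 (adjusted p = 0.196, edgeR), and this fit called 173 features higher and 184 lower. Leaving out 1 library at a time gave MIR215 values from 1.63 to 2.39. MIR192 turned to -0.25 leaving exosome 5 and cell 2 out together. Relative to the median of all features it was below 0 there and without cell 2 (-0.06). The other members stayed above that median in all settings, MIR215 by 1.47 to 2.20 and MIR122 by 5.02 to 5.87. The miRNA features alone gave 37 higher and 13 lower calls, from fewer features tested (365). Under the replicate block the difference in the MIR215 to MIR194-1 ratio turned to -0.16 (exact sign-flip p = 1). For all 3 ratios, 3 pairs allow no p below 0.25, and leaving out a library raises the smallest possible p above 0.05, so these settings say nothing about the stability of a call. The 2 fits that leave out exosome 5 and cell 2, or exosomes 4 and 5, were chosen after seeing the data. Depth limits MIR215 and MIR194-1 most, with as few as 11 and 8 counts in a library.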

Other observations

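How far the 4 genes varied between libraries of a group can be read against the other miRNA features. Over 278 tested miRNA features with counts in every exosome library, the highest CPM was a median of 4.37 times the lowest (quartiles 2.73 and 7.97). MIR122 spanned 5.73-fold, MIR192 3.56-fold, MIR215 3.54-fold and MIR194-1 2.86-fold. In cells the median over 293 features was 3.33-fold (quartiles 2.07 and 5.28). MIR194-1 spanned 9.63-fold there, MIR192 4.96-fold and MIR122 4.71-fold. MIR215 spanned 1.16-fold in cells, less than all but 8 of the 293, from counts of 11 to 22 per library, whose counting intervals (5.49 to 19.7 and 13.8 to 33.3) are wider than that span. Exosome 1 had the lowest MIR122 and the second highest MIR192 level.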
